A study of Homo sapiens with 7 samples.

Results

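Broad open domains are stretches that the peak caller returned as wide intervals of ATAC-seq signal in every library of the study. They were chosen from the list of vehicle library 7, on chromosomes 1 to 22 and X, as the intervals at least 1000 bp wide that overlap an interval at least 1000 bp wide in each of the other 6 libraries. This gave 1920 domains of the 32828 intervals of that library. Width in all 7 libraries is therefore what chose the members, so widths are described here and not tested. A further 15542 intervals of vehicle 7 overlapped an interval in every other library without meeting the width rule, and they are called the other shared intervals.

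The assay was ATAC-seq: Tn5 transposase inserts adapters into open DNA, which is then amplified and sequenced. The cells were wild-type LUHMES, an established human line of mesencephalic origin that carries a tetracycline-repressed v-myc transgene. All cells were differentiated for 6 days in medium with tetracycline, dibutyryl cAMP and GDNF into cells labelled as dopaminergic neurons. The stressed group, 4 libraries from differentiations 6, 7, 8 and 9, was exposed for 8 hours to 25 µM antimycin A and 10 µM oligomycin, which block complex III and the ATP synthase of mitochondria. The vehicle group, 3 libraries from differentiations 6, 7 and 8, received DMSO. The comparison addresses which chromatin is open with and without mitochondrial stress, in a single cell line.

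Open chromatin in a mammalian nucleus is found mostly at promoters and enhancers, where nucleosomes are displaced by transcription factors and the transcription machinery. Most promoters of widely used genes lie in CpG islands, stretches rich in the dinucleotide CpG that stay unmethylated and accessible, while promoters with a TATA box are fewer and more often tissue-restricted. Wide accessible or active domains have been described at genes of cell identity and at genes that respond to signals. Satellite arrays at centromeres are a different kind of sequence, built of near-identical repeats, to which short reads cannot be placed uniquely.

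Most gene starts inside broad domains were rich in CpG. The promoters of 5 are printed here to show what such sequence looks like and how it varies. They are the 250 bases before and 50 bases after a gene start, from RefSeq on GRCh38.p14, each lying at least in part inside a broad domain, written 5′ to 3′ on the strand of the gene with every CpG in capitals. HSPE1 (chr2:197500129-197500428, + strand) encodes the mitochondrial co-chaperonin HSP10 and shares its start region with HSPD1, the HSP60 chaperonin, on the other strand. TGIF1 (chr18:3448181-3448480, + strand) encodes a homeodomain repressor of TGF-β signalling. DUSP6 (chr12:89352452-89352751, − strand) encodes a phosphatase that switches off ERK kinases. SLC25A3 (chr12:98593436-98593735, + strand) encodes the mitochondrial phosphate carrier. NHLH1 (chr1:160366821-160367120, + strand), a neuronal helix-loop-helix factor, is shown as a promoter with few CpG.
HSPE1: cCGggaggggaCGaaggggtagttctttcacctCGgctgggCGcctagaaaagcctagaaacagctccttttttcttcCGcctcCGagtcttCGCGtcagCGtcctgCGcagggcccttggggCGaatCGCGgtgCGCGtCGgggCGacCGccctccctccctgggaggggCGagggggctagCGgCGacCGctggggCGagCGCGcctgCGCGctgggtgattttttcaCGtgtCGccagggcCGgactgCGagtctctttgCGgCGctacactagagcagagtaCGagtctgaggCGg
TGIF1: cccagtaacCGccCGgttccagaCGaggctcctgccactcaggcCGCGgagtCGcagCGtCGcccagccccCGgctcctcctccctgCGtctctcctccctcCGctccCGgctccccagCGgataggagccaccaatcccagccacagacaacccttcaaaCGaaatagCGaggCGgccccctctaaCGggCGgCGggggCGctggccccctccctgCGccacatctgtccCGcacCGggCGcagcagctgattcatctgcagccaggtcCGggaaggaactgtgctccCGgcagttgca
DUSP6: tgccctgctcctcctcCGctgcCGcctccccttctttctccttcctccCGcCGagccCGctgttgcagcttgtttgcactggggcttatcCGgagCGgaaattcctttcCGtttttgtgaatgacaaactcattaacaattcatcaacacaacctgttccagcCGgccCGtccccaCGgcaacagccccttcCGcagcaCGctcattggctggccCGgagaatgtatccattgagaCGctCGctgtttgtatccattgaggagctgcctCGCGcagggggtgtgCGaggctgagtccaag
SLC25A3: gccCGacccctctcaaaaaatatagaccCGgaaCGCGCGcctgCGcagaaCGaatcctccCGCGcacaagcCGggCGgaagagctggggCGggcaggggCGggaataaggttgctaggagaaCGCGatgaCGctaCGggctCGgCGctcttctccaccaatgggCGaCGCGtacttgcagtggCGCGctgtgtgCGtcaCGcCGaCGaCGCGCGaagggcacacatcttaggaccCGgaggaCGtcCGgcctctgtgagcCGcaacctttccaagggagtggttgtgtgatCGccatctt
NHLH1: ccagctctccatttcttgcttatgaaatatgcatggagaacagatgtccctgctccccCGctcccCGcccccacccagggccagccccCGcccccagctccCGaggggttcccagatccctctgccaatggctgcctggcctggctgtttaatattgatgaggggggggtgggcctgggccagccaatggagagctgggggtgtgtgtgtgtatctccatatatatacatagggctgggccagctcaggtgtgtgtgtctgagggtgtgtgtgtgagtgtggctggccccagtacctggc
The 300 bases held 35 CpG at HSPE1, 26 at TGIF1, 19 at DUSP6, 36 at SLC25A3 and 4 at NHLH1.

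Among gene starts inside the domains the same composition was the rule. Domains away from gene starts, and those on chromosome 8, had no promoter sequence to count. Of the 22132 starts of protein-coding genes with a promoter sequence, 1980 starts of 1535 genes lay inside a broad domain. Their 300-base windows had a median GC content of 67.0% and a median of 28 CpG, and 98.3% held at least 10 CpG. Windows of starts inside the other shared intervals were close to this, with 66.0% GC, 27 CpG and 96.4% with at least 10 CpG. Starts in no interval of vehicle 7 had 58.0% GC, 10 CpG and 51.4% with at least 10 CpG. CpG-rich sequence thus marked open starts in general and differed little between broad and other shared intervals. Single starts in domains spanned a wide range, with 1 CpG at PHF8, a histone demethylase gene, and 55 at IGF1R, ECPAS and ANKRD12.

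Short sequence motifs were counted on both strands of these windows, as letters and not as binding sites. GGGCGG, the core letters of the GC box, was in 77.7% of the domain windows, 74.7% of the other shared windows, 43.1% of the windows in no interval and 56.3% of all promoters. CCGGAA, a core of ETS-family sites, was in 26.4% of domain windows, against 33.9% of other shared windows and 21.2% of all promoters. TATAAA was in 3.38% of domain windows, 3.82% of other shared windows and 9.46% of all promoters. CCAAT, which occurs near the starts of TGIF1, DUSP6, SLC25A3 and NHLH1 above, was in 38.7%, against 39.4% and 34.6%. TGACG, the core of a CRE site, was in 35.5% of domain windows, 37.8% of other shared windows and 27.9% of all promoters.

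Of the 1920 domains, 1627 (84.7%, exact binomial 95% interval 83.1 to 86.3) lay within 1000 bp of the start of a protein-coding gene, or of either end where the table gave no strand, and these are called gene-start domains. The share was 52.2% of the other shared intervals and 33.1% of all other vehicle 7 intervals. Domains are not replicates of one another, and the intervals cover counting error only. The summit itself, the point of highest signal, was within 1000 bp of a start in 82.1% of the domains and in 50.9% of the other shared intervals. A pair or more of genes was marked by 289 domains (15.1%), against 6.68% of the other shared intervals, and 189 domains (9.84%) covered the starts of divergent genes on opposite strands, against 4.32%. HSPD1 with HSPE1, GABPA with ATP5PF, and HNRNPA2B1 with CBX3 were such divergent pairs. These shares are over all intervals, and more of the domains lie at a start. At gene starts alone, 289 of 1627 domains and 1038 of 8114 other shared intervals marked a pair or more. Divergent starts were covered by 189 and 672 of these. A wider interval can reach more starts, and the part of width in these counts was not tested. A further 152 domains (7.92%) were distal, over 1000 bp but within 100 kb of a start, 70 of them inside a gene body. The other 141 (7.34%) were over 100 kb from any protein-coding start and are called gene-distant; 111 of these lay outside every annotated gene, and 59 of them were on chromosome 17.

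Around the 1070 gene-start domains with a single start and known strand, the open interval reached further into the gene than upstream. In stressed libraries 6, 7, 8 and 9 the median downstream lengths were 1165, 1528, 844.5 and 1082 bp, and the upstream lengths 906.5, 1143.5, 663.5 and 817 bp. In vehicle libraries 6, 7 and 8 they were 878, 737 and 1135.5 bp downstream and 696.5, 591 and 874.5 bp upstream. The downstream side was the longer in 63.1% to 70.7% of these domains in the stressed libraries and in 62.0% to 66.5% in the vehicle libraries. Among 4530 other shared intervals with a single start, it was the longer in 57.9% to 71.5% in the stressed libraries and in 51.7% to 68.6% in the vehicle libraries.

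In all, 1903 of 19974 protein-coding genes had a broad domain at a start, or at an end where the annotation used here gave no strand, which is 9.53% of the genes. Of the 9819 genes with any interval shared by all libraries, 19.4% had a broad domain. The list counts below are read against these shares and are descriptions. In 17 gene lists, 94 of 622 genes were marked. The lists with the highest and lowest shares differed widely. The dopaminergic, the glial, and the mesenchymal and endothelial lists had no marked member. Few of their genes had a shared interval, too few to set these counts apart from the share over all genes.

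Feedback inhibitors of signalling had the highest share of the 17 lists, 14 of 40 genes, with 33 of the 40 holding a shared interval. The widest was DUSP6, at 4253, 6913, 3109 and 3742 bp in the stressed libraries and 2987, 2413 and 3694 bp in the vehicle libraries, so that the groups overlapped. TRIB1, a pseudokinase of the Tribbles family, followed at 4025, 4956, 3652 and 3688 bp in the stressed libraries and 3345, 3368 and 3812 bp in the vehicle libraries. SPRY1, a Sprouty inhibitor of receptor tyrosine kinase signals, had 3282, 3867, 3118 and 3186 bp in stressed and 2276, 2594 and 3288 bp in vehicle libraries. The other marked members were DUSP5, DUSP10, SPRY2, SPRED1, NFKBIA, BTG1, TOB1, RGS2, SKIL, SOCS2 and SOCS5.

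Housekeeping lists are read against the 19.4% of all genes with a shared interval that had a broad domain. Of 45 pre-mRNA splicing factors, 13 were marked, 31.7% of the 41 with a shared interval. Among them were HNRNPL, HNRNPDL and HNRNPUL1, RNA-binding proteins of the hnRNP class. Of 59 chromatin regulators, 13 were marked, 25.5% of the 51 with a shared interval. The widest were at ARID2, a subunit of the PBAF remodeller, SIN3A, the scaffold of a histone deacetylase complex, and SMARCA2, a remodelling ATPase. SIN3A stood at 6079, 6471, 1876 and 5753 bp in the stressed libraries and 1317, 1495 and 2990 bp in the vehicle libraries, with stressed 8 narrower than vehicle 8. Translation factors were marked in 5 of 35 cases, including EEF1A1, the elongation factor that delivers aminoacyl-tRNA. This was 18.5% of the 27 with a shared interval, near the share over all genes. The chromatin share rests on 13 of 51 genes. The cytosolic ribosomal protein genes held a domain in 4 of 78 cases, 7.41% of the 54 with a shared interval. Replication-dependent histone genes had 2 of 61, with 28 shared, and proteasome subunits 1 of 35, with 27 shared, both small counts.

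Of 28 heat shock and chaperone genes 8 were marked, 36.4% of those with a shared interval, against 19.4% over all genes: HSPD1, HSPE1, HSPA8, HSP90AB1, HSP90B1, DNAJA1, DNAJB4 and PDIA4. This share rests on 8 of 22 genes, and HSPD1 and HSPE1 are not separate counts, since the same domain marks both. That domain, chr2:197499521-197500649, measured 2360, 3169, 2111 and 2283 bp in the stressed libraries and 2168, 1129 and 2297 bp in the vehicle libraries. Of 32 genes of the integrated stress response, the programme that follows phosphorylation of eIF2α, 6 were marked, 27.3% of those with a shared interval: VLDLR, DDIT3, DDIT4, PHGDH, EIF2AK3 and EIF2S1. DDIT3, which encodes the transcription factor CHOP, had 2231, 6975, 1860 and 4335 bp in stressed and 1625, 1473 and 1968 bp in vehicle libraries, and stressed 8 was narrower than vehicle 8. DDIT4, which encodes an inhibitor of mTORC1, had 2671, 4677, 2174 and 3037 bp in stressed libraries and 1367, 1131 and 2277 bp in vehicle libraries, with the same single overlap. The log2 ratio of mean stressed over mean vehicle width was 1.19 at DDIT3 and 0.98 at DDIT4, and 0.30 at VLDLR, the receptor gene of the list with the widest domain. Of 35 genes of mitochondrial respiration and biogenesis 5 were marked, 17.2% of those with a shared interval: ATP5F1B and ATP5F1C of the ATP synthase that oligomycin inhibits, UQCRQ of complex III that antimycin A inhibits, and GABPA and TFAM, which encode a nuclear and a mitochondrial transcription factor. Of the 33 immediate early genes 4 were marked, KLF10, EGR1, KLF6 and CCN1, which is 18.2% of those with a shared interval. The shares of these last 2 lists were near that over all genes. The integrated stress response share rests on 6 of 22 genes, too few to set it apart from that share.

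Of 22 pan-neuronal markers 6 were marked, 31.6% of the 19 with a shared interval, against 19.4% over all genes. That is too few genes to set the share apart. TUBB2B, a neuronal tubulin, had 3617, 4229, 2407 and 3604 bp in stressed and 2938, 1052 and 4074 bp in vehicle libraries. STMN2, a growth-cone protein, and SNAP25, a SNARE of synaptic vesicle release, were similar in width, with means over the 7 libraries of 2849 and 2769 bp. ELAVL2, SYT1 and UCHL1 were the other members. None of 19 dopaminergic markers had a broad domain at a start. Only 8 had a shared interval there, too few to set that count apart from the share over all genes. These were DRD2, EN1, GCH1, GFRA1, NR4A2, OTX2, RET and SLC6A3. TH, which makes L-DOPA for dopamine and is the defining marker of the labelled cell type, was not among them. A gene-distant domain, chr1:165235228-165236282, lay inside LMX1A, another marker of this list, 120150 bp from its start. None of 16 glial or 13 mesenchymal and endothelial markers had a domain at a start, and 3 of each had a shared interval there, again too few. Progenitor markers held 2 of 16, VIM and PCNA. Of 66 neural and developmental transcription factors 11 were marked, 25.6% of the 43 with a shared interval, again too few to set the share apart. The 11 included some of the widest gene-start domains. These were at NR2F2 and NR2F1, orphan nuclear receptors of the COUP-TF family, PROX1, a homeodomain factor, and POU3F2 and POU3F3, POU factors of the nervous system. PROX1 had 3529, 9909, 1966 and 3611 bp in stressed and 1195, 1143 and 3748 bp in vehicle libraries.

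**Figure D1:**
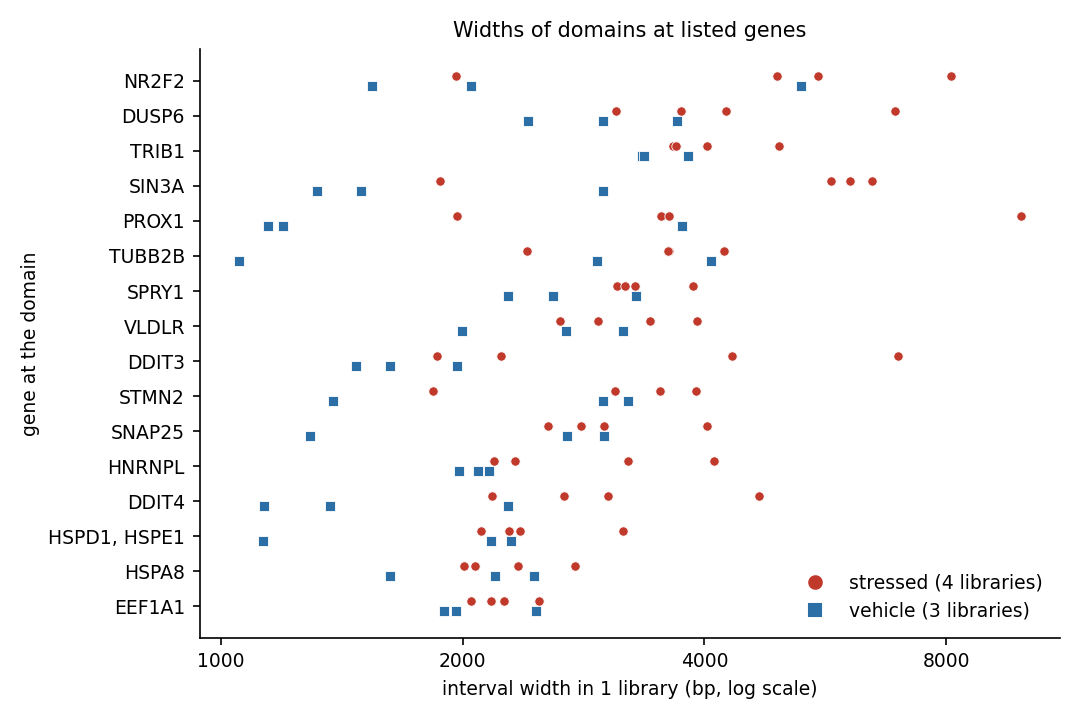
Width of the open interval, in bp on a log axis, at 16 domains of the gene lists in each of the 4 stressed libraries (circles) and 3 vehicle libraries (squares). HNRNPL is the only one of these whose groups do not overlap; DDIT3, DDIT4 and SIN3A are separated except for stressed 8 and vehicle 8.

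Outside the lists, the widest gene-start domain was at ZNF595, a zinc finger gene near the end of chromosome 4, with a mean of 5407 bp and 17069 bp in stressed 7 alone. TGIF1 followed, with 3 domains in vehicle 7, of 1241, 1676 and 1206 bp. They were 1 interval in stressed libraries 6, 7 and 9 at 5228, 7878 and 5180 bp and in vehicle 8 at 5109 bp, while in stressed 8 and vehicle 6 the first and second were joined, at 3471 and 3353 bp. The NHLH1 start had 7311, 7784, 2551 and 3516 bp in stressed and 3528, 2043 and 4111 bp in vehicle libraries. IRX5, a homeodomain factor, PCDH7, a protocadherin, NFATC4, a calcium-responsive transcription factor, PKDCC, a secreted kinase, SGMS1, a sphingomyelin synthase, and ZNF503 completed the widest. Such joining of neighbouring domains was rare: 37, 56, 28 and 43 of the 1920 domains shared an interval with another domain in stressed 6, 7, 8 and 9, and 32 and 36 did in vehicle 6 and 8.

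Next to the limit, the smallest width over the libraries was 1000 bp at IPO11, in vehicle 7, and 1001 bp at GDF9 and ELP4, in vehicle 7 and vehicle 6. It was 999 bp at NUP54 and SCD, in stressed 8, and at ACTR1A, in vehicle 6, and these stayed outside. Of the 2591 vehicle 7 intervals of at least 1000 bp, 671 failed the rule. Stressed 8 alone kept 227 of them out and vehicle 6 alone 210, whereas stressed 7 and vehicle 8 kept out none alone.

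Domains were wider on average in the stressed than in the vehicle libraries, but the 7 libraries differed as much within a group as between the groups. The median domain width was 2158, 2789, 1553 and 1984 bp in stressed 6, 7, 8 and 9, against 1612, 1318 and 2113 bp in vehicle 6, 7 and 8. The medians averaged 2121 ± 513 bp in stressed libraries (SD, n = 4) and 1681 ± 402 bp in vehicle libraries (SD, n = 3), a gap below the SD of the stressed group. Stressed 8 was the narrowest but one of all libraries, and vehicle 8 was wider than stressed 8 and 9. Per domain, the log2 ratio of mean stressed over mean vehicle width had a median of 0.30, and the middle of the distribution ran from 0.19 to 0.43. Among the other shared intervals the median was 0.56. The stressed mean was the wider in 1857 domains (96.7%) and in 97.2% of the other shared intervals, so that the direction was not particular to the domains.

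Length of the lists and sequencing depth moved with these widths, though not in every library, and their part in them was not tested. The lists held 188516, 248900, 55533 and 53063 intervals in stressed 6, 7, 8 and 9, and 53398, 32828 and 159902 in vehicle 6, 7 and 8. The background pile-up that the deposited fold enrichments imply, a measure of relative depth, was 2.18, 5.99, 0.816 and 1.499 fragments in the stressed and 0.492, 0.611 and 1.43 in the vehicle libraries. Stressed 7, with the longest list and the highest background, held the widest interval at 1773 domains, and vehicle 7, with the shortest list, the narrowest at 1203. Stressed 9, by contrast, had a shorter list than stressed 8 and vehicle 6 but a larger median domain width. Vehicle 6 had the lowest background but a larger median domain width than stressed 8 and vehicle 7. The domains were 1.70, 1.54, 2.23 and 1.91 times as wide as the other shared intervals, by medians, in stressed libraries and 2.39, 2.88 and 1.73 times in vehicle libraries. When each width was divided by that library's median for the other shared intervals, the median log2 ratio was −0.38 in place of 0.30. Undivided, it was 0.14 without stressed 7, 0.17 without vehicle 7 and 0.48 without vehicle 8. ATAC-seq of bulk cells also cannot tell apart fewer cells with an open region and less opening in each cell.

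Widths that did not overlap between the groups were found at 49 domains (2.55%), each wider in every stressed than in every vehicle library, against 2.11% of all 17462 shared intervals. No domain was narrower in every stressed library, against 0.0% of the shared intervals. The share of domains was thus near that of shared intervals in general. The count was held down most by stressed 8 and vehicle 8. Without stressed 8 it was 427 domains (22.2%, against 19.7% of shared intervals), and without vehicle 8 it was 676 (35.2%, against 39.8%). The 49 comprised 40 gene-start, 5 distal and 4 gene-distant domains.

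The largest of these ratios was at a distal domain near NHLH1, chr1:160362259-160363403, 3839 bp from the start, with 7311, 7784, 1930 and 3340 bp in the stressed libraries and 1430, 1145 and 1598 bp in the vehicle libraries (log2 ratio 1.87). In stressed 6 and 7 it was part of the same interval as the NHLH1 start. NR2F6, an orphan nuclear receptor, led the gene starts with 1725, 5528, 1620 and 3131 bp in stressed and 1260, 1127 and 1452 bp in vehicle libraries (log2 ratio 1.23). PRMT1, the main protein arginine methyltransferase, had 3108, 3470, 1809 and 2918 bp in stressed and 1200, 1421 and 1715 bp in vehicle libraries (log2 ratio 0.97). A distal domain 23333 bp from ANXA2R had a log2 ratio of 1.10. At the shared start of LOC112268307 and AMER1, a regulator of Wnt signalling, on chromosome X the widths were 3359, 8717, 3079 and 3454 bp in stressed and 2779, 1286 and 2802 bp in vehicle libraries (log2 ratio 1.02). A gene-distant domain on chromosome 4, nearest to CWH43, and a distal domain on chromosome 15 had log2 ratios of 1.53 and 1.48, and their widths are given with their clusters.

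Of the other gene starts among the 40, 3 with mitochondrial products are given as examples, picked after their values were seen. At SLC25A3 the widths were 2024, 2952, 1652 and 1578 bp in stressed and 1138, 1321 and 1358 bp in vehicle libraries. TOMM40, the channel of the outer membrane import complex, had 1676, 1757, 1571 and 1610 bp in stressed and 1223, 1067 and 1483 bp in vehicle libraries. MTHFD1L, a mitochondrial folate enzyme, had 2032, 2058, 1915 and 1891 bp in stressed and 1291, 1067 and 1861 bp in vehicle libraries. None of the 5 marked genes of the list of mitochondrial respiration and biogenesis had widths that did not overlap between the groups. Of the genes with the smallest ratios, RBPJ, the effector of Notch signalling, had 3449, 4327, 3489 and 3616 bp in stressed and 3288, 3044 and 3332 bp in vehicle libraries, MIB1, an E3 ligase of Notch ligands, had a log2 ratio of 0.30, and RAD23B, a DNA repair factor, 0.27. Gene-distant domains had the smallest, 0.07 in the chromosome 17 tract at the domain nearest to WSB1 and 0.04 on chromosome 16 at the domain nearest to LOC124903767.

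At the other end, outside the gene-distant class, the stressed mean was the lower at EPHB6, an ephrin receptor gene with a distal domain (log2 ratio −0.26), NDUFAB1, the mitochondrial acyl carrier protein (−0.15), CTNNA2, neuronal α-catenin (−0.13), OXCT1, a ketone body enzyme (−0.13), and WWP1, a ubiquitin ligase (−0.13). At NDUFAB1 the widths were 1234, 2211, 1292 and 1838 bp in stressed libraries and 2057, 1229 and 2194 bp in vehicle libraries, and the groups overlapped.

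The strength of the signal at the domains did not separate the groups. The fold enrichment at the summit over the library's background, the authors' value for each interval, had a median over the domains of 37.1, 28.7, 13.2 and 14.8 in stressed 6, 7, 8 and 9 and of 17.4, 12.4 and 35.3 in vehicle 6, 7 and 8. Other shared intervals had 20.4, 15.01, 7.71 and 8.40 in stressed and 8.71, 7.45 and 20.1 in vehicle libraries. Within each library the domains stood above the other shared intervals by 0.86, 0.94, 0.78 and 0.82 on the log2 scale in the stressed libraries and by 1.0, 0.74 and 0.81 in the vehicle libraries. The means were 0.848 ± 0.068 in stressed and 0.850 ± 0.136 in vehicle libraries (SD, n = 4 and 3), a difference of −0.0016 with an exact permutation p of 1, two-sided over all 35 assignments, where the smallest possible p is 0.0286. This p measures the spread between these libraries. The contrast is not independent of the rule, since width chose the domains and the other shared intervals are those that failed it. Stressed 8 and vehicle 6 each kept out more intervals alone than any other library. With 7 libraries such a p does not show that the groups have equal strength.

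The widest domains of all lay away from genes. The satellite content of these and of the other domains away from genes, the chromosome 17 tract included, was not checked. Whether their signal reflects open chromatin was not tested. None of the 10 widest was at a gene start; they lay in 4 places, on chromosomes 1, 15, 16 and 21. The widest, chr16:46385330-46392073, was 231345 bp from the nearest gene start and measured 10777, 17265, 6855 and 7907 bp in stressed and 6973, 6744 and 7181 bp in vehicle libraries, with a fold enrichment of 253, 420, 159 and 364 in stressed and 256, 202 and 222 in vehicle libraries. The domain chr1:125176168-125181766 measured 8503, 8862, 7741 and 8956 bp in stressed and 8937, 5599 and 8363 bp in vehicle libraries. On chromosome 15, 4 vehicle 7 domains between 20343696 and 20359144 fell in a single interval of 21744 bp in stressed 7 and of 15422 bp in stressed 9. In stressed 7 that interval also covered the domain starting at 20339459.

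As the width asked of every library was raised, gene starts gave way to gene-distant domains. At 1500 bp 492 domains remained, of which 74.0% were at a gene start and 19.1% were gene-distant. At 2000 bp 145 remained, 45.5% at a gene start and 46.9% gene-distant. At 2500 bp 59 remained, of which 12 (20.3%) were at a gene start and 43 (72.9%) were gene-distant, 32 of them in 1 tract of chromosome 17.

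**Figure D2:**
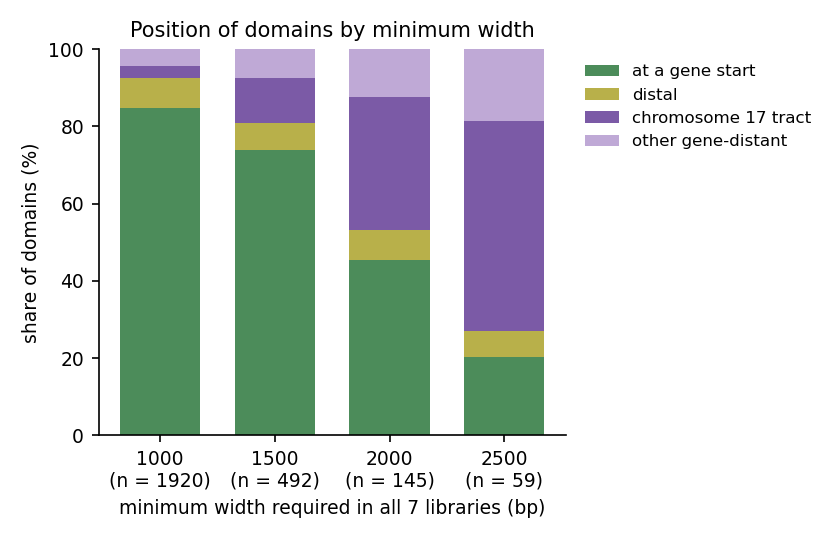
Share of domains, in %, at gene starts, at distal sites, in the chromosome 17 tract and at other gene-distant sites, for minimum widths of 1000, 1500, 2000 and 2500 bp in all 7 libraries. Gene starts make up 84.7% of the 1920 domains at 1000 bp and 20.3% of the 59 at 2500 bp.

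The tract on chromosome 17 held all 59 gene-distant domains of that chromosome, from 23214096 to 25924753, a span of 2.71 Mb on hg38 with a median gap of 32.0 kb between neighbours. No annotated gene overlapped it, and vehicle 7 had 72 intervals there. In hg38 the centromeres are filled with modelled satellite arrays. The sources used here do not say how reads with several alignments were handled. The median widths in this tract varied little between libraries. The medians were 2840, 2935, 2768 and 2764 bp in the stressed libraries and 2928, 2798 and 2840 bp in the vehicle libraries, which average 2827 ± 80.2 bp in stressed and 2855 ± 66.3 bp in vehicle libraries (SD, n = 4 and 3). The stressed mean was the wider in 29 of 59, with a median log2 ratio of −0.00. Fold enrichment was similar in all libraries too, with medians of 12.6, 13.01, 14.3 and 14.8 in stressed and 16.8, 14.9 and 13.1 in vehicle libraries. By contrast, the median width at gene starts ran from 1526 to 2736 bp in stressed libraries and from 1306 to 2078 bp in vehicle libraries.

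**Figure D3:**
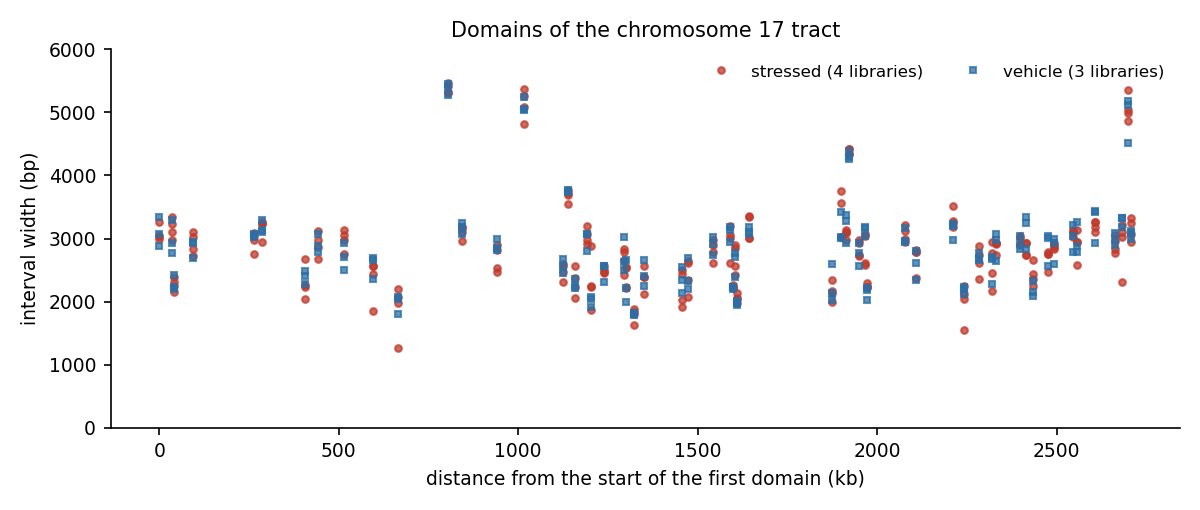
Width, in bp, of the 59 domains of the chromosome 17 tract against distance along it in kb, with 1 point for each of 4 stressed (circles) and 3 vehicle (squares) libraries. The widest library exceeds the narrowest by a factor of 1.17 at the median domain and of 1.75 at most.

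The other 82 gene-distant domains behaved like the rest, and more variably. Their median widths were 2506, 4221, 1764.5 and 2578.5 bp in stressed and 1857.5, 1498 and 2731 bp in vehicle libraries, with a median log2 ratio of 0.44. Distal domains had medians of 2282.5, 2997.5, 1557 and 1965 bp in stressed and 1509.5, 1270 and 2160 bp in vehicle libraries, with a median log2 ratio of 0.35. Gene-start domains had 2117, 2736, 1526 and 1946 bp in stressed and 1589, 1306 and 2078 bp in vehicle libraries, with 0.30.

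**Figure D4:**
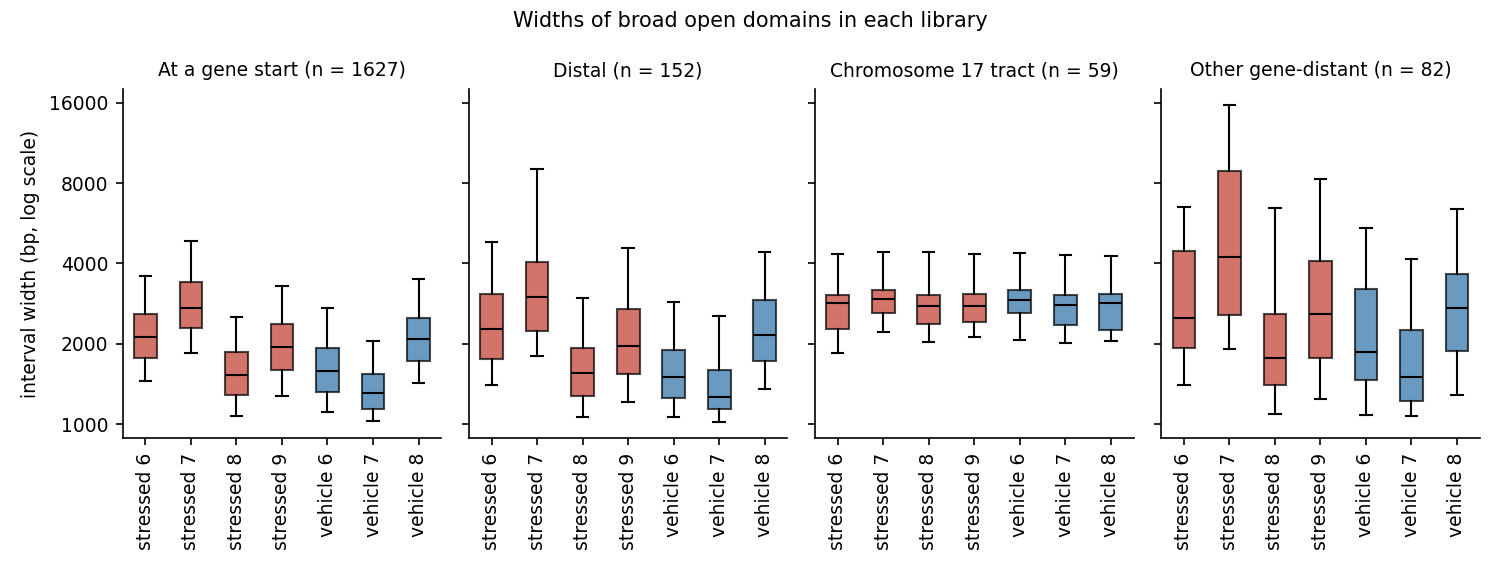
Width of the open interval, in bp on a log axis, for the 4 classes of domain in each stressed and vehicle library; boxes span the quartiles with the median, and whiskers the 5th to 95th percentiles. Medians at gene starts run from 1526 to 2736 bp in stressed and 1306 to 2078 bp in vehicle libraries, while in the chromosome 17 tract all 7 lie between 2764 and 2935 bp.

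Some domains overlapped microRNA genes. Hairpins of 14 microRNAs overlapped 14 domains (0.729%), against 49 of the other shared intervals (0.315%). The domains cover more sequence each, with a median vehicle 7 width of 1318.5 bp against 458 bp. The part of width in these shares was not tested. The domain chr12:62602432-62603802 was classed as distal. The nearest position used for a protein-coding gene, a start or an end of MON2, is 2824 bp away. This domain holds the hairpin of let-7i, a member of the let-7 family that rises as cells differentiate. It measured 1760, 1977, 1454 and 1542 bp in stressed and 1350, 1371 and 1697 bp in vehicle libraries. The mature 5p strand is shown because its seed, bases 2 to 8 in capitals, is the one shared by the let-7 family.
hsa-let-7i-5p: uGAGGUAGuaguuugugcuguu
The other hairpins were MIR3124, MIR933, MIR7845, MIR4442, MIR12115, MIR4453, MIR4665, MIR1915, MIR2110, MIR1908, MIR6125, MIR3652 and MIR4522.

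Along the chromosomes most domains stood alone. With domains at most 50 kb apart joined, 1623 were single, 86 pairs formed, and 125 domains fell into 30 clusters of 3 or more. Of the clusters 15 were of gene-distant domains, 9 of them in the chromosome 17 tract, and 14 were of gene-start domains. Another domain lay within 50 kb of 297 domains (15.5%), while 10.8% of the other shared intervals had a domain that near. Among gene-start domains alone the share was 9.59%, close to the 8.60% of other shared intervals at a gene start.

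The largest clusters were again away from genes. On chromosome 1, 10 domains lay between 143192553 and 143264949, and on chromosome 15, 9 lay between 20248308 and 20359144, near LOC124903442. A run of 7 in the chromosome 17 tract spanned 25089471 to 25187360, and 2 further runs there had 6 domains each. Small clusters on chromosome 16, of 4 domains from 34571534 to 34596155 and of 3 from 46385330 to 46401644, had median vehicle 7 folds of 54.3 and 109, against 12.4 over all domains. The chromosome 4 cluster, of 4 domains from 49101101 to 49150708, included one whose widths did not overlap between the groups, at 5861, 18591, 4246 and 4011 bp in stressed and 1873, 2967 and 3650 bp in vehicle libraries. On chromosome 15 the domain starting at 20339459 had 4522, 21744, 4156 and 3670 bp in stressed and 2307, 3344 and 3518 bp in vehicle libraries. Its width in stressed 7, which enters its log2 ratio, is that of the interval that also covered other domains of the cluster.

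Gene clusters were smaller. The 5 domains from 248825125 to 248907361 near the end of chromosome 1 marked PGBD2, SH3BP5L, ZNF672 and ZNF692. On chromosome 14, 4 domains from 49585918 to 49635621 marked DNAAF2, LRR1, MGAT2, RPL36AL and RPS29, which include both a Golgi glycosyltransferase gene, MGAT2, and ribosomal protein genes. On chromosome 19, 4 domains from 58543687 to 58576369 marked MZF1, TRIM28 and UBE2M; TRIM28 encodes the corepressor KAP1 of KRAB zinc finger proteins. Clusters of 3 marked TGIF1 on chromosome 18, PRKAA1, RPL37 and TTC33 on chromosome 5, SNX14 and SYNCRIP on chromosome 6, and MED19, TMX2, YPEL4 and ZDHHC5 on chromosome 11.

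Chromosomes differed in how often an open start was broad. Of all 9741 shared intervals at a gene start, 16.7% were broad domains. The share was 4.22% on chromosome 17 (exact binomial 95% interval 2.32 to 6.97, 14 of 332) and 4.65% on chromosome 22 (1.73 to 9.85, 6 of 129). It was 9.55% on chromosome 19 and 9.69% on chromosome 15. It was highest on chromosome 21 at 26.0% (16.5 to 37.6), chromosome 4 at 25.4%, chromosome 14 at 22.99%, chromosome 8 at 22.8% and chromosome 5 at 22.6%. For chromosome 8 the table gave no starts, so either end of a gene counted there, and its share is not on the same footing. Fold enrichment of the remaining gene-start intervals moved with these shares: relative to all chromosomes, on the log2 scale and averaged over the 7 libraries, it was −0.22 on chromosome 17, −0.21 on chromosome 22 and −0.16 on chromosome 15, against 0.12 on chromosome 4 and 0.13 on chromosome 14. Over the 23 chromosomes Pearson's r was 0.85, as a description, since all points come from the same 7 libraries. Copy number of the chromosomes in these cells was not tested.

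**Figure D5:**
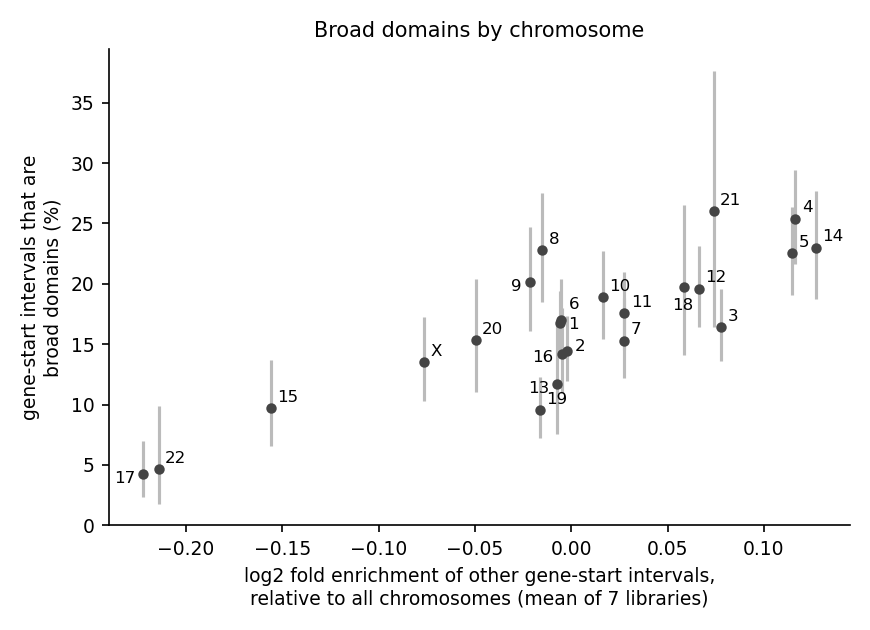
Share of shared gene-start intervals that are broad domains, in % with exact binomial 95% intervals, against the log2 fold enrichment of the other gene-start intervals of each chromosome relative to all chromosomes, averaged over 7 libraries. Chromosomes 17 and 22 lie lowest on both axes, at 4.22% and 4.65%, and chromosomes 4 and 14 are high on both.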

How the data were processed

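ATAC-seq was measured in 4 stressed and 3 vehicle libraries. Per the submitters' processing notes, which give no versions, the tools included Bowtie2, FastQC and Picard and the build was hg38. Per the file headers, MACS2 called the peaks, for each library on its own. The sources used here do not give the caller's settings, any Tn5 shift or the handling of reads with several alignments; each would change widths.

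The columns of each deposited list are position, score, fold enrichment at the summit (a ratio), −log10 q-value and −log10 p-value, as the authors' caller wrote them. The score was not used. Within a library all deposited fold values lay on a grid of whole steps (within 0.05 of a step), and the inverse of the step minus 1 was taken as the background pile-up. Read totals are not stated, so the depth is otherwise unknown and the intervals on shares cover counting error only.

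Intervals on chromosomes 1 to 22 and X were kept. In each library the widest interval overlapping a vehicle 7 interval by at least 1 bp gave its width and the largest overlapping summit its fold. Each interval had 1 summit, so counts of summits per domain, planned at first, could not be made. Coordinates are 1-based. Gene starts came from RefSeq promoters on GRCh38.p14 for 15813 of 19974 protein-coding genes, and both gene ends were used for the other 4161. Promoter sequences of chromosome 8 were not used here.

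The members and the gene lists were chosen with earlier results of these data known. Domains are named by the nearest gene start, or by the nearest gene end where both ends were used. The text names the 10 widest domains, the 5 largest and 5 smallest width ratios among domains whose groups do not overlap, the largest clusters, the domains nearest the width limit and list members with the widest domains; the widest gene-start domains, other list members and other domains were named after their values were seen. Enrichment was compared by an exact permutation test. The overlap code returned what bedtools 2.31.1 returned on simulated intervals. Software was scipy 1.17.1, pandas 2.3.3, numpy 2.4.6 and matplotlib 3.10.9 under Python 3.11.15. Other width limits, overlaps, thresholds, windows and libraries left out were tried. A result on 1 domain is not reported here.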

Additional observations from a re-analysis of the deposited data

Results flagged for a closer look

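In 174 sets of 4 stressed values, nearly all of them widths of a named or listed domain, a single library was sought whose gap to the nearest of the others, divided by the range of the 4, passed Dixon's 95% critical value. Chance alone passes it in about 1 in 20 groups, but that rate does not apply as it stands, since widths chose the domains and many were named for their widths, so these values are a description and not a test. This was so at 17 domains. Stressed 7 was the high library at PKDCC (0.935), LOC124903442 on chromosome 15 (0.953), CWH43 on chromosome 4 (0.873), LOC112268307 with AMER1 (0.933), CD46 (0.931), CDO1 (0.887), CEP170 (0.926), CTDSPL2 (0.964), UGCG (0.927), KAT2B (0.989), DCBLD1 (0.935), HEY1 (0.880) and KLF6 (0.936). At KAT2B, a histone acetyltransferase gene, the widths were 2425, 4641, 2400 and 2413 bp in stressed 6, 7, 8 and 9 and 2312, 2376 and 2381 bp in vehicle 6, 7 and 8. Stressed 9 was the high library at the chromosome 17 domain nearest to WSB1 (0.952), with 2226, 2226, 2229 and 2288 bp in stressed and 2186, 2020 and 2221 bp in vehicle libraries. Stressed 8 was the low library at SIN3A (0.844), FOXA1 (0.840) and EIF3H (0.876). Stressed 7 had the longest list and the highest implied background, and stressed 8 the lowest background of the stressed libraries; the part of either in these gaps was not tested.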

How the results depend on the processing

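The number of domains was 3343 at a minimum width of 800 bp, 492 at 1500 bp and 145 at 2000 bp, and 1920 to 2147 with single libraries left out. The log2 width ratio was −0.38 after division by each library's median for other shared intervals, and 0.14 to 0.48 with single libraries left out. Widths above every vehicle width were found at 80 domains (800 bp), 17 (1500 bp) and 3 (divided widths), and at 49 to 676 with single libraries left out. The difference in enrichment, −0.0016, turned to 0.0036 at 800 bp (exact permutation p = 0.943) and to 0.0063 without stressed 9 (exact permutation p = 1), within a range of −0.058 to 0.0063 over libraries left out. Same-numbered libraries did not pair: their width deviations correlated at −0.02, −0.11 and −0.43 over domains for numbers 6, 7 and 8, and with the replicate block the width ratio was 0.33 and the enrichment difference 0.0087 (exact sign-flip p = 1). The share at a gene start was 80.9% with no window, 88.8% with all annotated genes, 74.0% at 1500 bp and 79.4% with either end of every gene. The share with another domain nearby was 9.69% within 25 kb, 25.5% within 100 kb, 18.1% at 1500 bp and 11.6% without gene-distant domains. List genes marked were 88 and 95 with windows of 0 and 2500 bp. The other settings tried kept the direction, and their counts stayed within 1.5 times. Results on summits per domain were not run, since each interval has 1 summit. Implied background was lowest in stressed 8, vehicle 6 and vehicle 7; the part of depth in the widths was not tested.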
